A study of Mus musculus with 16 samples.

Results

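The genes Vcan, Zfp518b, Dirc2, Gpr125, Acp6, Hspbap1, G3bp2 and Arhgef18 were followed in primordial germ cells (PGCs), from which sperm and eggs descend, of mouse embryos. They are 8 of the 26219 genes in both expression tables of the series, found by their symbols, and they were chosen by their RPM values in the floxed libraries, being expressed in controls and several-fold higher in libraries labelled as Prdm1 conditional knockouts (CKO). That contrast is therefore given for them as a description, and only the wild-type comparisons are tested. The question taken up here is whether normal development between E10.5 and E13.5 (embryonic days) brings these genes to the levels of the CKO-labelled libraries.

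The first table holds 4 control and 4 CKO-labelled libraries of E11.5 cells on a C57BL/6 background. All of these embryos were Prdm1(flox/flox) with a Rosa26(neo-EYFP/+) reporter, and the CKO-labelled ones also carried Dppa3-MCMP(Tg/0), a tamoxifen-inducible Cre driven from Dppa3, a gene active in PGCs. Controls lacked that transgene, so its presence and the deletion of Prdm1 cannot be told apart. Dams of both groups were given 4-hydroxytamoxifen at E10.5, at a dose of 3 mg for each 25 g of body weight. Sorting is described by EYFP and by an SSEA-1 antibody, with neither tied to a group, so sort and group may also coincide. The second table holds wild-type cells sorted for a Dppa3(EGFP/+) reporter on a mixed ICR and C57BL/6 background, with 2 libraries each at E10.5, at E11.5, at E13.5 from males and at E13.5 from females. The labels do not say that libraries came from separate embryos, and p-values therefore reflect only the spread among these libraries, which may be technical. Values are RPM, 3′ sequencing reads of a gene scaled to a common library total (the usual RPM unit), not divided by gene length. In bulk libraries like these, fewer cells expressing a gene and less RNA per cell cannot be told apart.

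PRDM1, also called BLIMP1, is a zinc finger repressor of transcription that is required for PGC specification. It binds DNA elements built around GAAAGT and recruits corepressors that modify chromatin. After specification PGCs migrate to the genital ridges, reprogram their chromatin, and in the fetal gonad take a male path towards mitotic arrest or a female path into meiosis. The 8 genes belong to different cellular systems, namely extracellular matrix and surface (Vcan, Gpr125), small GTPase signalling (Arhgef18), lysosome and lipid metabolism (Dirc2, Acp6), RNA granules (G3bp2), zinc finger proteins (Zfp518b) and the small heat shock system (Hspbap1).

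The genes lie on 5 chromosomes of GRCm38.p6, the build of the RefSeq annotation used. Vcan spans 89655309 to 89743027 on the minus strand of chromosome 13. Chromosome 5 carries Zfp518b (38668484 to 38684984, minus), Gpr125 (now Adgra3, 49959951 to 50058996, minus) and G3bp2 (92052145 to 92137725, minus). Acp6 spans 97158752 to 97176576 on the plus strand of chromosome 3, and Arhgef18 spans 3353338 to 3456601 on the plus strand of chromosome 8. Dirc2 (now Slc49a4, 35694062 to 35769370, minus) and Hspbap1 (35769726 to 35828462, plus) are neighbours on chromosome 16, head to head with 355 bases between their gene models. Of the 8, Vcan alone overlaps another gene of the table, Gm4117.

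RefSeq promoter windows, 250 bases before to 50 bases after a start site, were given for 8 of the 8 genes. GAAAGT, searched on both strands, is in the windows of 2 of them, Gpr125 and Acp6, at positions -146 and -22 from the start site, both as its reverse complement ACTTTC. Among all 32851 mouse windows 14.33% hold it, and among genes tested in the floxed table with a window 13.91% do. The longer GTGAAAG, which overlaps GAAAG of the shorter motif, is in 0 of the 8 genes and in 4.237% of all windows, and its absence says only that these letters are not in these windows. CACGTG, the E-box core, was searched after the sequences had been seen. It is in windows of 4 of the genes, Dirc2, Hspbap1, G3bp2 and Arhgef18, against 7.15% of all windows and 13.01% of the tested genes. The windows of the 8 genes hold 9 to 38 CpG dinucleotides, against a median of 7 and quartiles of 3 and 20 over all windows. That set includes windows of genes that were not tested in the floxed table, so it is not a like comparison. Shown first are the Gpr125 (chr5:50058947-50059246, minus strand) and Acp6 (chr3:97158527-97158826, plus strand) windows, because they hold the PRDM1 core, in capitals. The windows of Dirc2 (chr16:35769321-35769620, minus strand) and Hspbap1 (chr16:35770136-35770435, plus strand) follow, because these genes lie head to head. The Hspbap1 window lies inside its gene model, which begins at 35769726, so it holds no base of the stretch between the 2 models. The 2 windows are 515 bases apart. In those, CACGTG is in capitals, at -207 in Dirc2 and at -92 and -26 in Hspbap1. A match is a description of letters and not a binding site.
Gpr125: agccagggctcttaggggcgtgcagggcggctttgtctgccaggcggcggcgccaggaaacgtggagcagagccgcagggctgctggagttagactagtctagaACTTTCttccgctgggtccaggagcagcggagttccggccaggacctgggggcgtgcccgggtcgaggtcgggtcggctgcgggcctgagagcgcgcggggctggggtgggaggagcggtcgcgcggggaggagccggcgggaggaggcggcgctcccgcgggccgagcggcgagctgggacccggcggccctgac
Acp6: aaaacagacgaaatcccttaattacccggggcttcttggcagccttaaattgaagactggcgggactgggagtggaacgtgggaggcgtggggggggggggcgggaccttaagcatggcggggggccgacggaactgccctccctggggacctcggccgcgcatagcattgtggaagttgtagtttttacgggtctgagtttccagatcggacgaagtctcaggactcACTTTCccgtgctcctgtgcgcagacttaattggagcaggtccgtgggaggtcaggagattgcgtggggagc
Dirc2: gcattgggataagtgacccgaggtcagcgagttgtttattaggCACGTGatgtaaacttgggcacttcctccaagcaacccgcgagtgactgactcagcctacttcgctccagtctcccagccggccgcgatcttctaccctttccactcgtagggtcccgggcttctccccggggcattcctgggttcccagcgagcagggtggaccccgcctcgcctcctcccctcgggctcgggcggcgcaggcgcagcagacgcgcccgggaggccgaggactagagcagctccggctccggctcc
Hspbap1: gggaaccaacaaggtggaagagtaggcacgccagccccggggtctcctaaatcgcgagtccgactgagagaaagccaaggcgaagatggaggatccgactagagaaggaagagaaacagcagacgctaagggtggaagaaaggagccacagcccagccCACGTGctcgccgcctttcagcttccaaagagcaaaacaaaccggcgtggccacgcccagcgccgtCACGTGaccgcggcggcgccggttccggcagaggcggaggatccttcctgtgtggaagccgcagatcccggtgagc

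The floxed libraries held 2798000 to 5032000 reads, the wild-type libraries 1485000 to 4783000. Germ cell markers (Dppa3, Pou5f1, Nanos3, Dnd1, Tfap2c, Sall4, Dppa4 and Kit) were present in every library, 8 of 8. Their sums were 3575 to 4254 RPM in controls, 3424 to 3941 in CKO-labelled libraries and 5330 to 5417 at wild-type E11.5. They were 5041 to 5055 RPM at E10.5, 7839 to 8235 in E13.5 males and 3825 to 4055 in E13.5 females. Kit was lower in every CKO-labelled library (164 to 200 RPM) than in any control (229 to 267). Nanos3 was higher (21.0 to 27.4 against 12.7 to 20.3 RPM), and the other markers overlapped. The targeted gene was not lower under the CKO label. Prdm1 stood at 66.2, 50.7, 63.0 and 73.0 RPM in controls 1 to 4 and at 79.9, 84.1, 76.6 and 89.4 RPM under that label. Every library under that label was above every control, as for 4.34% of all genes tested. Tags from a 3′ end outside the deleted part would not show the deletion, but where the tags lie was not tested. The labels thus rest on genotype alone, and the cause of the higher values was not tested. A set of 12 gonadal somatic and mesenchymal markers was uneven. Its sum was 12.7, 74.2, 21.0 and 30.6 RPM in controls 1 to 4 and 104, 18.7, 9.47 and 260 RPM in CKO-labelled libraries 1 to 4. In the library labelled CKO 3, 6 of the 12 were at 0 (Nr5a1, Col1a2, Nr2f2, Dlk1, Tcf21 and Lum), and in CKO 2 the gene at 0 was Nr5a1. By this set, the libraries labelled CKO 2 and 3 had sums within or below the control range. Their endothelial, macrophage and mesonephric marker sums were within or below it as well. Erythroid markers summed to 0.99 RPM in CKO 2 and 67.2 RPM in CKO 3, against 0.71 to 56.5 RPM in controls.

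In the floxed table, each of the 8 genes was higher in all 4 CKO-labelled libraries than in any control, which is part of how they were chosen. Of 9384 genes passing the filter of at least 5 RPM in 4 libraries, 4.34% had groups apart in this direction. All 8 passed that filter, 4 of them (Vcan, Zfp518b, Dirc2 and Gpr125) with fewer than 4 controls at 5 RPM. With limma on log2(RPM + 1), 2.43% were called at an adjusted p under 0.05, and 1.93% were called higher. The ratio of CKO-labelled to control means ran from 2.41 for G3bp2 to 5.95 for Vcan. At the inner edge, the lowest CKO-labelled library of Gpr125 was 1.41 times its highest control, the smallest gap, and that of Zfp518b 3.35 times, the widest. Outside the list, 41 other genes were called higher with groups apart, a control mean no lower than the lowest of the 8 (3.59 RPM) and a ratio of at least 2.41.

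**Figure D1:**
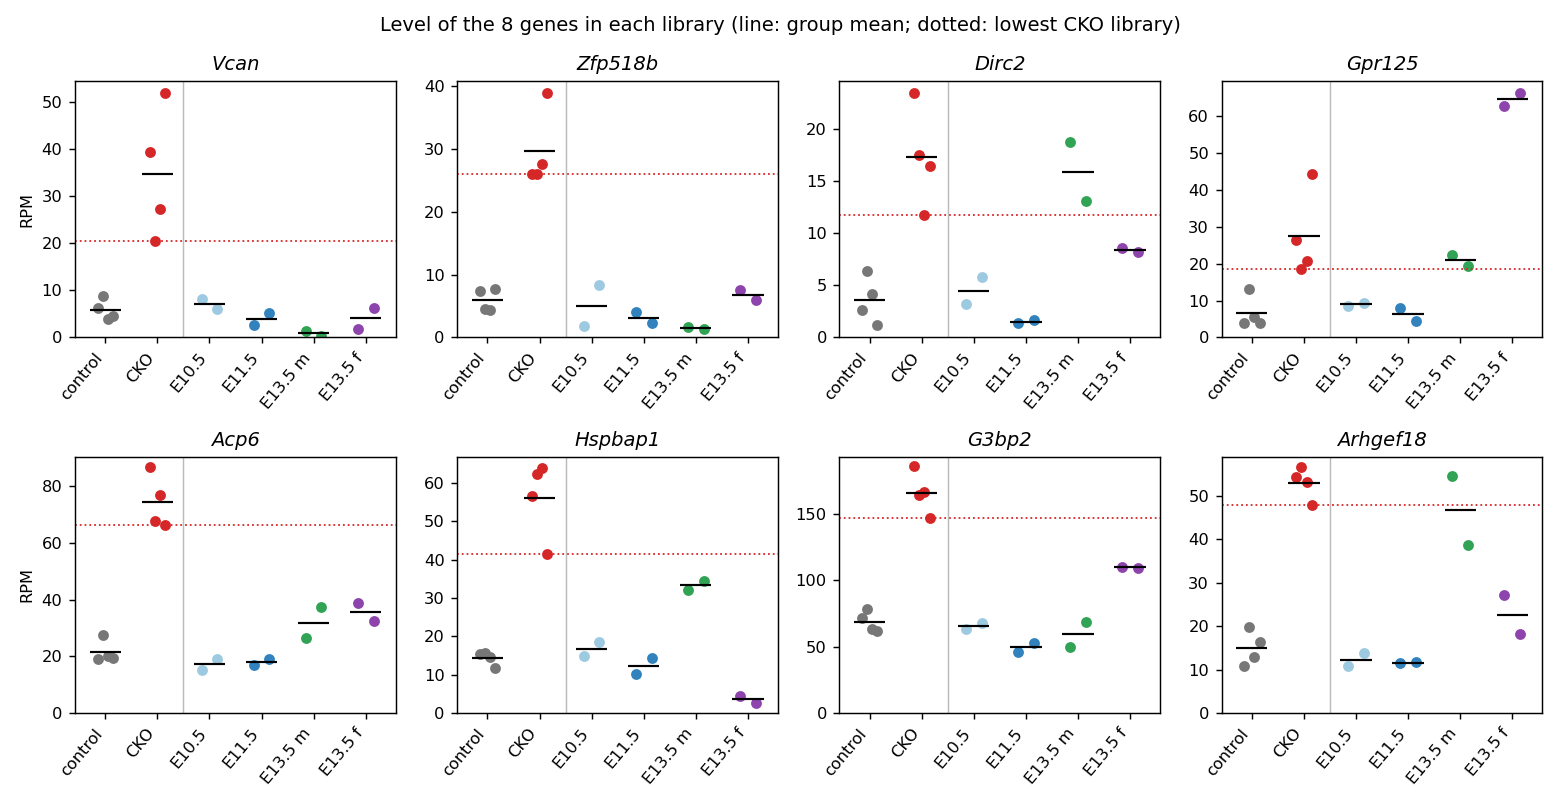
RPM (vertical axis, starting at 0) of each of the 8 genes in each library of the 6 groups, with a line at the group mean and a dotted line at the lowest CKO-labelled library. The vertical bar separates the 2 separately normalised tables. All CKO-labelled points lie above all controls, and wild-type points reach the dotted line for Gpr125, Dirc2 and Arhgef18.

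Vcan encodes versican, a large chondroitin sulphate proteoglycan that binds hyaluronan in the extracellular matrix. It measured 6.18, 8.75, 3.94 and 4.48 RPM in controls 1 to 4 and 39.2, 20.5, 27.3 and 51.8 RPM in CKO-labelled libraries 1 to 4, means of 5.84 ± 2.17 and 34.7 ± 13.8 RPM (SD, n = 4 each). The CKO-labelled libraries with the highest Vcan, 4 and 1, are those with the highest somatic marker sums. Libraries CKO 2 and 3, with sums of 18.7 and 9.47 RPM, were above every control, which is part of how the gene was chosen. Their mean was 4.09 times the control mean. In wild-type cells Vcan stayed low, at 8.13 and 6.08 RPM at E10.5, 2.69 and 5.12 at E11.5, 1.34 and 0.352 in E13.5 males and 1.88 and 6.30 in E13.5 females. The lowest of these, in a male library, is 1 read, and the highest, at E10.5, is in the wild-type group with the highest somatic marker sums (58.2 and 67.5 RPM, against 6.06 to 16.2 in the others). The part of somatic RNA in these values was not tested.

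Gpr125 encodes an adhesion G protein-coupled receptor, known in the adult testis as a surface marker of spermatogonial progenitors. It measured 3.83, 13.1, 5.47 and 4.00 RPM in controls and 26.5, 18.5, 20.7 and 44.3 RPM in CKO-labelled libraries, means of 6.61 ± 4.41 and 27.5 ± 11.7 RPM. Control 2 and CKO 4, the highest library of each group, also had the highest somatic marker sum of their group. Over CKO 2 and 3 alone the ratio to controls was 2.96 in place of 4.16. Wild-type cells held 8.58 and 9.28 RPM at E10.5, 8.08 and 4.56 at E11.5, 22.4 and 19.4 in E13.5 males, and 62.7 and 66.3 in E13.5 females. Both female libraries, whose somatic marker sums were 6.27 and 6.30 RPM, stood above every CKO-labelled library, and both male libraries stood above the lowest CKO-labelled one.

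**Figure D2:**
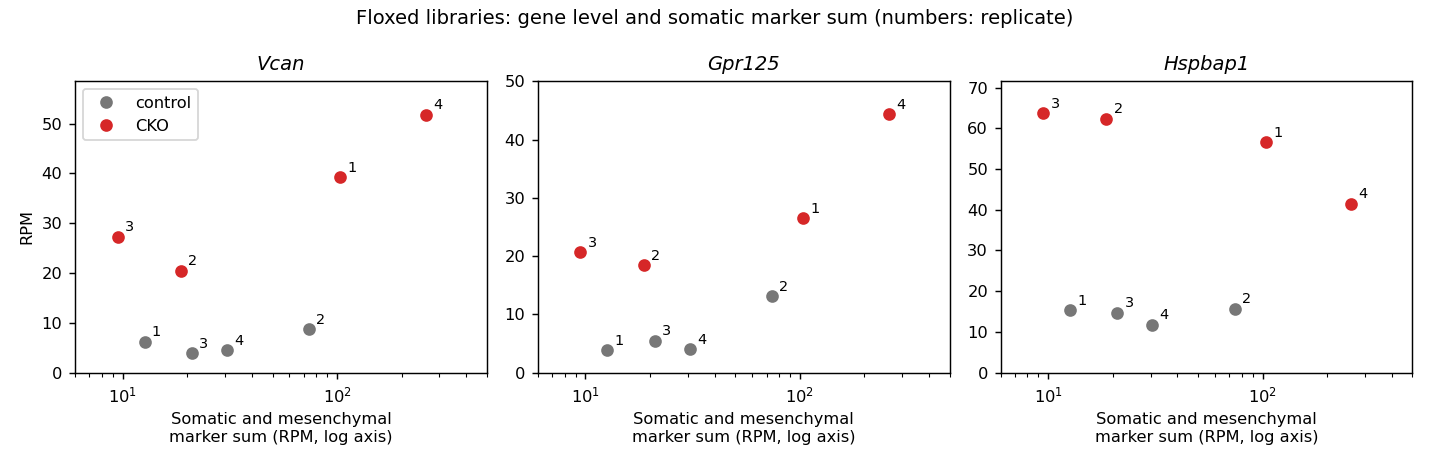
RPM of Vcan, Gpr125 and Hspbap1 (vertical axis, starting at 0) against the sum of 12 somatic and mesenchymal markers (horizontal log axis, RPM) in the 8 floxed libraries, numbered by replicate. Vcan and Gpr125 were highest in CKO 4, where the sum was 260 RPM, and Hspbap1 was lowest there among CKO-labelled libraries. All 3 genes stood above every control in CKO 2 and 3, which is part of how they were chosen.

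Arhgef18 encodes a guanine nucleotide exchange factor that activates RhoA at cell junctions. Its CKO-labelled libraries were the most even of the 8 genes, at 54.3, 56.6, 53.1 and 47.9 RPM, the highest 1.18 times the lowest. Controls held 10.9, 19.9, 12.9 and 16.3 RPM, so the means were 14.99 ± 3.95 and 53.0 ± 3.70 RPM. Wild-type cells held 10.8 and 13.8 RPM at E10.5, 11.4 and 11.7 at E11.5, 54.4 and 38.7 in E13.5 males and 27.2 and 18.1 in E13.5 females. A single male library, replicate 1, overlapped the CKO-labelled range.

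Dirc2 encodes a transporter of the lysosomal membrane. It measured 2.65, 6.37, 4.16 and 1.18 RPM in controls and 23.5, 17.5, 11.8 and 16.4 RPM in CKO-labelled libraries, means of 3.59 ± 2.22 and 17.3 ± 4.80 RPM. The control values rest on 5 to 32 reads each, and the wild-type E11.5 values of 1.35 and 1.71 RPM on 2 and 6 reads. Wild-type E10.5 held 3.16 and 5.76 RPM, E13.5 males 18.7 and 13.03 and E13.5 females 8.57 and 8.22. The male libraries lay inside the CKO-labelled range and the female libraries between that range and the controls.

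Acp6 encodes a phosphatase that removes phosphate from lysophosphatidic acid, a signalling lipid. Controls held 19.1, 27.5, 20.1 and 19.3 RPM and CKO-labelled libraries 86.9, 67.8, 76.9 and 66.5 RPM, means of 21.5 ± 3.99 and 74.5 ± 9.45 RPM. Wild-type cells held 15.3 and 19.2 RPM at E10.5, 16.8 and 19.1 at E11.5, 26.4 and 37.3 in E13.5 males and 38.9 and 32.6 in E13.5 females. The wild-type groups before E13.5 overlapped each other and both sexes at E13.5 overlapped each other, all below the CKO-labelled range.

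G3bp2 encodes an RNA-binding protein that nucleates stress granules, assemblies of stalled messenger RNA. It measured 71.8, 78.2, 63.0 and 61.7 RPM in controls and 185.8, 164.1, 166.2 and 146.9 RPM in CKO-labelled libraries, means of 68.7 ± 7.75 and 165.8 ± 15.9 RPM. Its wild-type libraries held 63.6 and 67.5 RPM at E10.5, 45.8 and 53.0 at E11.5, 50.1 and 68.3 in E13.5 males and 110.2 and 109.4 in E13.5 females. The female libraries stood apart from the other wild-type libraries, between the controls and the CKO-labelled range.

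Zfp518b encodes a zinc finger protein whose human counterpart is known to associate with the H3K9 methyltransferase G9a (Ehmt2). Controls held 7.36, 4.58, 4.38 and 7.77 RPM and CKO-labelled libraries 26.0, 26.0, 27.6 and 39.0 RPM, means of 6.02 ± 1.79 and 29.6 ± 6.26 RPM. Wild-type values were 1.81 and 8.32 RPM at E10.5, 4.04 and 2.28 at E11.5, 1.67 and 1.41 in E13.5 males and 7.53 and 6.03 in E13.5 females. No wild-type library came near the lowest CKO-labelled one, and the E10.5 replicates spanned nearly the whole wild-type range.

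Hspbap1 encodes a JmjC-domain protein that binds the small heat shock protein HSPB1. Controls held 15.3, 15.7, 14.7 and 11.8 RPM and CKO-labelled libraries 56.7, 62.4, 63.7 and 41.5 RPM, means of 14.4 ± 1.78 and 56.1 ± 10.2 RPM. CKO 4, with the highest somatic marker sum, had the lowest value of its group. Wild-type cells held 14.9 and 18.6 RPM at E10.5, 10.1 and 14.2 at E11.5, 32.1 and 34.5 in E13.5 males and 4.39 and 2.74 in E13.5 females. The sexes stood on opposite sides of every control and every earlier wild-type library.

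Development brought 3 of the 8 genes to the CKO level, taken as a highest wild-type library at or above the lowest CKO-labelled one. Gpr125 reached 359% of that level, in 4 wild-type libraries, Dirc2 159% in 2, and Arhgef18 114% in 1. The 5 others peaked at 83.2% (Hspbap1, male), 74.99% (G3bp2, female), 58.5% (Acp6, female), 39.7% (Vcan, E10.5) and 32.0% (Zfp518b, E10.5). The share of the 8 that reached it, 37.5%, was no higher than among other raised genes. It was 43.9%, 18 of 41, among the other genes with a control mean and a ratio no lower than the lowest of the 8. Among all 177 genes called higher with groups apart it was 44.1%, 78 genes. The comparison is a description, since the tables were normalised separately and differ in strain. Controls and wild-type E11.5 libraries, the same stage in both tables, differed by a median of 0.04 (log2) over 9303 genes, with 90% of genes between -0.87 and 0.78, and the 8 genes by 0.06 (Gpr125) to 0.86 (Dirc2), all higher in controls. With each library divided by the E11.5 reference of its own table the count was 4, G3bp2 being added at 2.23 times its reference against 2.14 in the lowest CKO-labelled library. With group means it was 1, Gpr125, whose female mean was 235% of the CKO-labelled mean. Dirc2 and Arhgef18 in males then stood at 91.8% and 87.9%. Without E13.5 male replicate 1 the count was 2, Arhgef18 being lost.

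**Figure D3:**
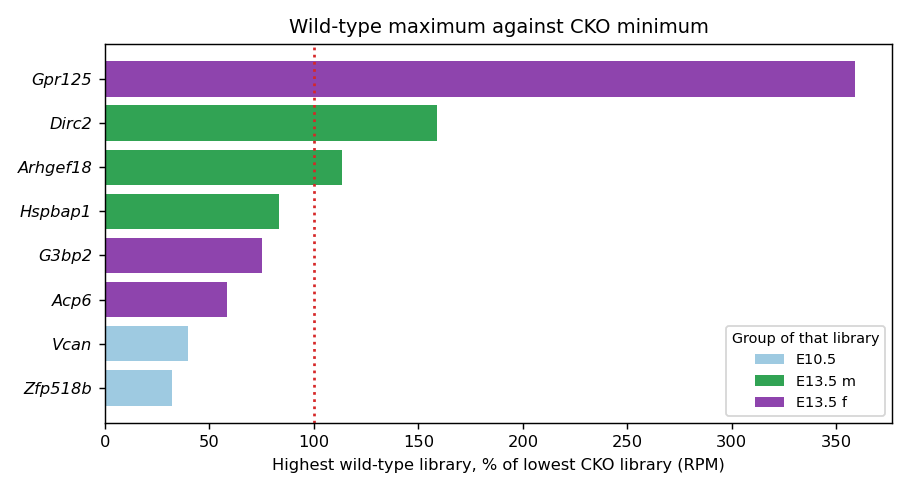
Highest wild-type library of each gene as a percentage of its lowest CKO-labelled library (horizontal axis, starting at 0, dotted line at equality), coloured by the group of that library. Gpr125, Dirc2 and Arhgef18 pass the line, at 359%, 159% and 114%, and no peak falls at E11.5.

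The wild-type comparisons did not enter the choice of the genes and were tested with limma over 10749 genes with at least 5 RPM in 2 libraries, a filter that all 8 passed. The fit takes all 8 wild-type libraries together, and the comparisons share libraries, so each is read by itself. Differences below are on the log2(RPM + 1) scale with their standard error, n = 2 per group, and adjusted p-values are Benjamini-Hochberg over all genes tested. That scale understates the change of low genes.

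Between E10.5 and E11.5, the stage at which the floxed cells were collected, 0 of the 8 were called, with a background of 4.28%, 2.31% higher and 1.97% lower. At an unadjusted p under 0.05, 2 were lower at E11.5, G3bp2 (-0.41 ± 0.16) and Dirc2 (-1.07 ± 0.41). Over all genes 2057 of 10749 passed that level in either direction. On reads recovered from the RPM steps, limma's voom called 0 of the 8. The median of the 8 was -0.42, against 0.02 over all genes tested. Median-ratio scaling turned the split of all calls from 248 higher and 212 lower to 212 higher and 280 lower.

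From E11.5 to E13.5 in males 5 of the 8 rose and 1 fell, with a background of 38.2%, 22.3% higher and 15.9% lower. The rises were those of Dirc2 (2.72 ± 0.41, adjusted p = 4.83e-06, limma), Arhgef18 (1.90 ± 0.27, 2.85e-06), Gpr125 (1.62 ± 0.29, 5.39e-05), Hspbap1 (1.398 ± 0.32, 0.000899) and Acp6 (0.78 ± 0.25, 0.0132). Vcan fell by 1.42 ± 0.51 (0.0275), while Zfp518b (-0.68 ± 0.51, 0.304) and G3bp2 (0.24 ± 0.16, 0.244) did not pass. Both male libraries were above both E11.5 libraries for the 5 that rose. The call of Acp6 was lost without E11.5 replicate 1 (0.0589) and without male replicate 2 (0.196). That of Vcan, at 1 to 18 reads per library, was lost in 5 of 16 alternatives, including without E11.5 replicate 2 (0.183) and without male replicate 2 (0.219). Median-ratio scaling turned the split of all calls from 2392 higher and 1713 lower to 1996 and 2002, and quantile normalisation to 1989 and 1950, and under each of them 5 of the 8 were called higher and 1 lower.

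In females 5 rose and 1 fell over the same interval, with a background of 51.2%, 31.2% higher and 20.0% lower. Gpr125 rose by 3.21 ± 0.29 (adjusted p = 5.39e-10, limma), Dirc2 by 1.90 ± 0.41 (0.000319), G3bp2 by 1.14 ± 0.16 (1.57e-06), Acp6 by 0.95 ± 0.25 (0.00198) and Arhgef18 by 0.88 ± 0.27 (0.00846). Hspbap1 fell by 1.53 ± 0.32 (0.000223). Zfp518b (0.93 ± 0.51, 0.127) and Vcan (-0.05 ± 0.51, 0.944) did not pass. The call of Arhgef18 was lost without female replicate 1 (0.174). Quantile normalisation turned the split of all calls from 3354 higher and 2148 lower to 2731 and 2811. It moved the median of all genes from 0.13 to -0.02, and under it 5 of the 8 were called higher and 1 lower. Relative to the median of all genes, the median of the 8 was 0.94 against 0.13 in females and 1.09 against 0.11 in males.

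Between the sexes at E13.5, 4 of the 8 were higher in females and 2 in males, with a background of 37.6%, 21.2% higher and 16.4% lower in females. Gpr125 (1.59 ± 0.29, adjusted p = 7.21e-05, limma) and G3bp2 (0.90 ± 0.16, 7.12e-05) were higher in females, with female and male libraries apart. Hspbap1 was lower in females, by -2.93 ± 0.32 (2.59e-08), the strongest sex difference of the 8. The other calls each depended on single libraries or settings. Arhgef18, lower in females (-1.02 ± 0.27, 0.00417), was lost without male replicate 1 (0.109) or female replicate 2 (0.118). Zfp518b (1.61 ± 0.51, 0.0130) was lost without any single E13.5 library, at adjusted p from 0.0535 to 0.110, and with no filter (0.0920) or no variance trend (0.0601). Vcan (1.37 ± 0.51, 0.0338) was lost in 7 of 16 alternatives. These were without male replicate 2 (0.251) or female replicate 2 (0.469), with no filter (0.133), no variance trend (0.0813), pseudocount 10 (0.0690), quantile normalisation (0.131) and voom (0.0828). Dirc2 (-0.82 ± 0.41, 0.113) and Acp6 (0.18 ± 0.25, 0.607) did not pass.

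**Figure D4:**
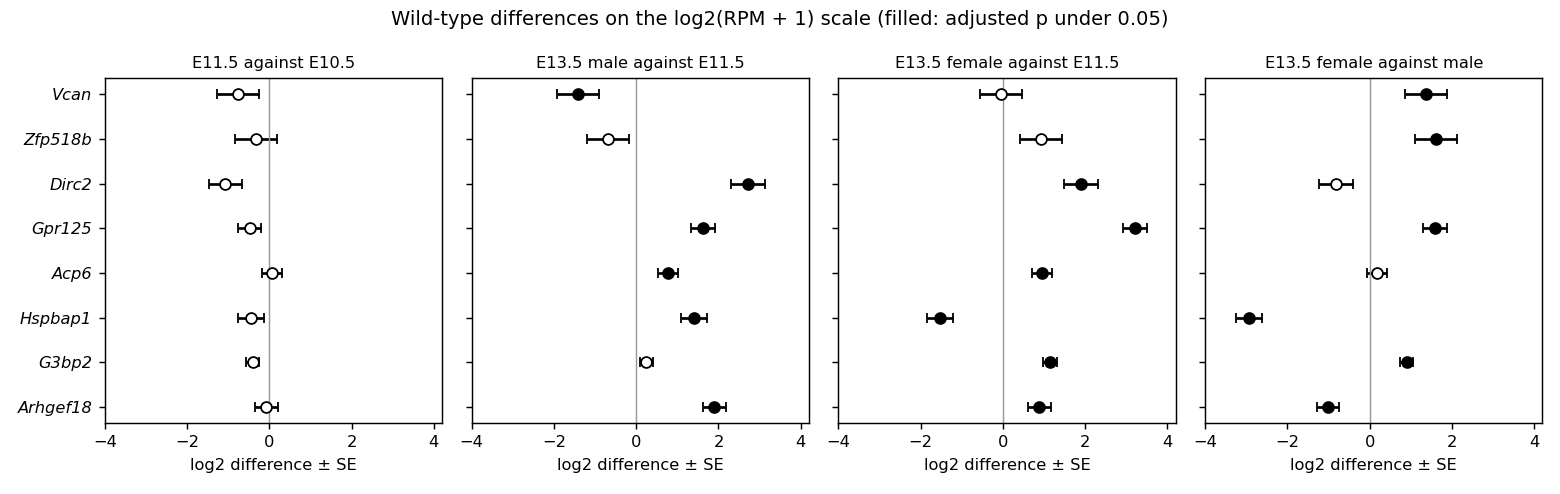
Log2(RPM + 1) differences (horizontal axis) with standard errors for the 8 genes in 4 wild-type comparisons, n = 2 libraries per group, filled where the adjusted p was under 0.05 in limma. No gene is filled between E10.5 and E11.5, and Hspbap1 lies at 1.398 in males and at -1.53 in females against E11.5.

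Among themselves the 8 genes did not follow 1 wild-type pattern. Over the 8 wild-type libraries, which fall into 4 groups, Pearson's r of log2(RPM + 1) between pairs ran from -0.80 (Vcan and Arhgef18) to 0.91 (Dirc2 and Arhgef18), and 11 of 28 pairs were negative. The head-to-head pair Dirc2 and Hspbap1 had r = 0.23. Both rose in males, but in females Dirc2 rose and Hspbap1 fell. By the same measure, the genes most like the members other than Dirc2 were Cyp1b1 for Vcan (r = 0.97), Mcfd2 for Zfp518b (0.96), Smad5 for Gpr125 (0.99), Agfg2 for Acp6 (0.98), Scpep1 for Hspbap1 (0.98), Ankrd44 for G3bp2 (0.98) and Ube2b for Arhgef18 (0.97). Of the 3 most like genes of each, 24 in all, 19 could be tested in the floxed libraries. By limma or voom 0 were called there, where limma called 2.43% of all genes. At an unadjusted p under 0.05 there were 2 in limma, where 1125 of all 9384 genes passed that level. So small a group was not tested against these shares. The smallest adjusted p among them was 0.0979, for Taf5l.

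The pair on chromosome 16 lay among other genes that were higher in the CKO-labelled libraries. Within 300 kb of Dirc2 and Hspbap1, a window set after the values had been seen, 7 other genes were tested. Among them Parp14, an ADP-ribosyltransferase next to Hspbap1, passed the filter only through the CKO-labelled libraries, so it is described without a test. Its level was 3.24, 1.59, 3.28 and 4.71 RPM in controls and 14.6, 12.1, 17.5 and 13.2 RPM in CKO-labelled libraries. Of the 6 others 3 were called higher and 0 lower, against 1.93% higher and 0.501% lower over all genes. Parp9 and Dtx3l, which encode partner proteins in DNA damage and interferon responses, went from 15.8 to 32.6 RPM (1.02 ± 0.18, adjusted p = 0.00605, limma) and from 8.03 to 17.9 RPM (1.06 ± 0.21, 0.0161). Fam162a went from 144 to 217 RPM (0.59 ± 0.11, 0.0115). Along the chromosome Dirc2, Hspbap1, Parp14, Dtx3l and Parp9 followed each other without a gene of the table between them. Kpna1 (0.15 ± 0.12, 0.713), between Parp9 and Fam162a, did not pass, nor did Ccdc58 (0.13 ± 0.12, 0.745) and Pdia5 (0.17 ± 0.15, 0.744) towards the ends of the window. Dtx3l, Parp9 and Fam162a, 3 of 3, were also called by voom.

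**Figure D5:**
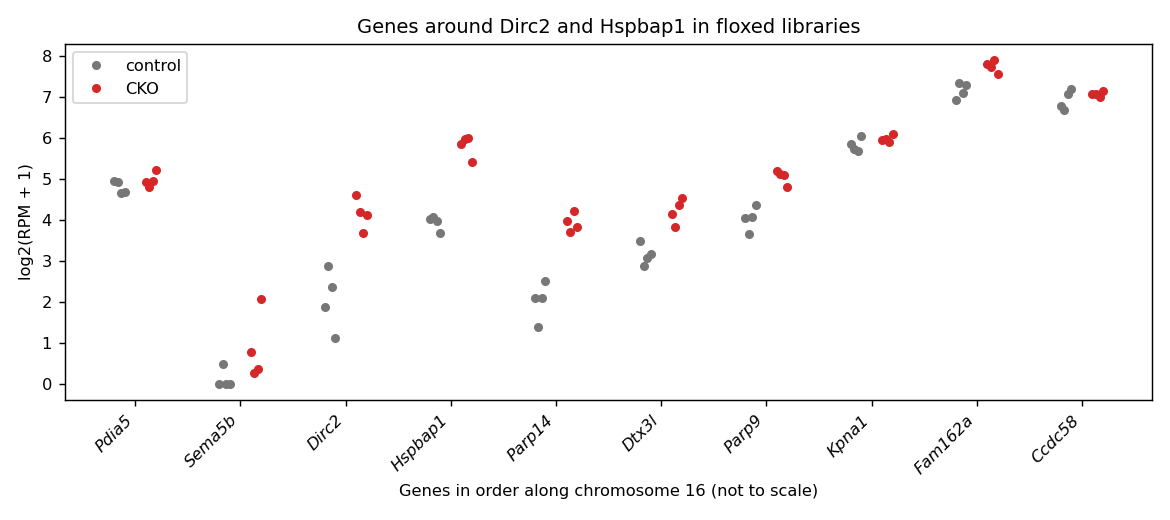
Log2(RPM + 1) of genes around Dirc2 and Hspbap1 in order along chromosome 16 (not to scale), 1 point per floxed library, controls in grey and CKO-labelled in red. Both groups are apart for Dirc2, Hspbap1, Parp14, Dtx3l, Parp9 and Fam162a, and overlap for Pdia5, Sema5b, Kpna1 and Ccdc58.

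Around the other 6 genes, windows of the same size held 18 tested genes. Of these 1 was called higher and 0 lower, against 1.93% higher and 0.501% lower over all genes. That gene was Uso1, a vesicle tethering factor that lies head to head with G3bp2, at 92137909 to 92202800 on the plus strand. It went from 48.7 ± 6.28 to 73.9 ± 4.89 RPM (0.60 ± 0.12, adjusted p = 0.0189, limma). By unadjusted p under 0.05, the same 6 windows held 2 higher genes, both around G3bp2, and 1 lower gene, near Vcan. Over all genes 1125 of 9384 passed that level in either direction, and these windows were not tested against that share. Hapln1, the link protein that holds versican on hyaluronan and the neighbour of Vcan, was too low to be tested, at means of 1.18 and 4.31 RPM.

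Genes from the pathways and families of the 8 were listed in 9 sets, 195 genes found in the table. In the CKO-labelled libraries 0 of 105 tested were called by limma or by voom, against the background of 2.43%. At an unadjusted p under 0.05, 5 were higher and 7 lower, where 1125 of all 9384 genes passed in either direction. The median was 0.01 against -0.01 over all genes. By smallest p in each set, the closest were Has3, a hyaluronan synthase (-0.95 ± 0.25, adjusted p = 0.0778), Cbx5, a heterochromatin protein (0.37, 0.114), Rgnef, a guanine nucleotide exchange factor (-0.68, 0.115) and Enpp2, the enzyme that makes lysophosphatidic acid (-1.11, 0.146). B3galt6 of chondroitin sulphate synthesis (-0.59, 0.206), the adhesion receptor Lphn1 (-0.61, 0.187), the lysosomal Mfsd1 (0.30, 0.305), the translation kinase Eif2ak1 (0.53, 0.342) and Jmjd8 (0.26, 0.733) led the other sets. The sets hold family members as well as partners of the 8 genes, and the 0 of 105 was not tested against the background share.

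In wild-type development the sets together were called about as often as all genes. Of 124 tested, 22 rose and 20 fell in males, 44 rose and 25 fell in females, and 29 were higher and 16 lower in females than in males. These are 33.9%, 55.6% and 36.3% of the 124, against 38.2%, 51.2% and 37.6% of all genes. Between E10.5 and E11.5, 1 rose (Atf7ip) and 3 fell (Setdb2, Diap3 and Lphn2), 3.2% of the 124 against 4.28% of all genes. Against all genes tested, the medians of the sets together were 0.11 against 0.11 in males and 0.16 against 0.13 in females.

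For each set below, the counts stand beside all genes tested, of which 22.3% rose and 15.9% fell in males and 31.2% rose and 20.0% fell in females. Of 5 hyaluronan and lectican-matrix genes tested, 1 rose and 1 fell in males and 3 rose and 2 fell in females. Fbln1, a versican-binding fibulin, fell by 1.95 ± 0.40 in males (adjusted p = 0.000327, limma) and rose by 1.49 ± 0.40 in females (0.00304). Of 14 chondroitin sulphate synthesis genes 2 rose and 2 fell in males and 4 rose and 1 fell in females, among them the sulphotransferase Chst15, up by 1.73 ± 0.50 in males (0.00683). Of 7 adhesion receptors 3 rose and 2 fell in males and 2 rose and 1 fell in females. Gpr56 rose by 3.56 ± 0.49 in males (1.36e-06) and was lower in females than in males (-3.74 ± 0.49, 6.49e-07), the opposite direction to Gpr125.

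Against the same shares of all genes (22.3% and 15.9% in males, 31.2% and 20.0% in females), the RhoA set had 3 rises and 7 falls in males and 10 rises and 5 falls in females among 22 tested. Arhgef3 rose in both (2.86 ± 0.37, adjusted p = 4.23e-07 in males and 2.35 ± 0.37, 5.7e-06 in females, limma), as Arhgef18 did, while the exchange factor Arhgef2 fell in both (-1.31 ± 0.17, 3.49e-07 and -1.56 ± 0.17, 1.11e-08). In the stress granule set of 18, 2 rose and 1 fell in males and 5 rose and 5 fell in females. G3bp1, the paralog of G3bp2, fell in females (-1.15 ± 0.09, 2.09e-11) where G3bp2 rose. Its partner Usp10 fell as well (-1.38 ± 0.13, 1.6e-09), and Fmr1 rose (1.34 ± 0.13, 2.5e-09).

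Of 14 H3K9 methylation genes 6 rose and 0 fell in males, with 7 at an unadjusted p under 0.05 and all of these higher, and 7 rose and 1 fell in females. In males 5002 of all 10749 genes had an unadjusted p under 0.05 in either direction. Over all genes 22.3% rose and 15.9% fell in males and 31.2% and 20.0% in females, and sets this small were not tested against those shares. Ehmt2 (0.84 ± 0.13 in males, adjusted p = 8.32e-06, limma), Setdb2 (2.14 ± 0.41 in males, 0.000157) and Zfp518a, the paralog of Zfp518b (1.12 ± 0.21 in females, 5.7e-05) were among the rises. The lysosomal set of 19 had 2 rises and 4 falls in males and 6 of each in females, with Mfsd1 (-1.63 ± 0.21, 5.91e-07 in males and -1.91 ± 0.21, 2.77e-08 in females) lower in both sexes, opposite to Dirc2. Of 16 genes of lysophosphatidic acid and acid phosphatases 3 rose and 2 fell in males and 7 rose and 3 fell in females, where Enpp2 fell by 2.88 ± 0.41 (1.92e-06). Of 9 small heat shock and JmjC genes 0 rose and 1 fell in males, Hspb1 itself, by 2.46 ± 0.25 (6.89e-09), where Hspbap1 rose. Hspb1 was higher in females than in males (1.97 ± 0.25, 3.65e-07), again opposite to Hspbap1.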

How the data were processed

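Messenger RNA 3′ ends of sorted mouse primordial germ cells were sequenced in 16 libraries, with 11 PCR cycles and, for wild-type libraries, 1 ng of RNA, per the labels. Per the submitters' processing notes, the tools were cutadapt 1.3, TopHat 1.4.1 and Cufflinks 2.2.0. The authors deposited RPM values, relative to reads assigned to genes and not divided by length, in 2 tables of 26219 genes. From 99.7% to 99.8% of positive values were whole steps of 1 read, within 0.05 reads, which gave the depth. Because 32 to 49 genes per library were not whole, values were tested as RPM. The 92 ERCC rows of the wild-type table were left out.

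Values were analysed as log2(RPM + 1) with limma 3.58.1 (lmFit, eBayes with trend) in R 4.3.3, after filtering at 5 RPM in 4 floxed or 2 wild-type libraries, with Benjamini-Hochberg adjustment and calls under 0.05. The fit was tested on simulated data. PCR copies are not independent molecules, so read numbers give counting error only. Members, gene lists and comparisons were chosen with earlier results of these data known. Named genes are the 8 members, Prdm1, their 3 most like genes, their neighbours, and per list up to 4 called genes with the smallest p, or else the first. A gene picked by this rule is not reported here. Alternatives changed the pseudocount (0.1, 10), filter (none, 20 RPM), scaling, variance trend, groups in the fit, a replicate block and each library left out. Chosen after seeing the data were voom, a fit without control 1 and CKO 4, the restriction to CKO 2 and 3, the CACGTG search and the 300 kb window. Promoters and positions came from RefSeq (GRCm38.p6), where 24615 of the identifiers were found. E10.5 and E11.5 wild-type libraries and controls served as the background levels.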

Additional observations from a re-analysis of the deposited data

Results flagged for a closer look

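In 2 of 16 sets of 4 floxed libraries (8 genes in each group) 1 library stood apart from the other 3 by its gap over the range, where chance alone gives about 1 in 20. These were Zfp518b in the library labelled CKO 4, at 39.0 RPM against 26.0 to 27.6 in the others, and Acp6 in control 2, at 27.5 RPM against 19.1 to 20.1. CKO 4 and control 2 also had the highest somatic marker sums of their groups (260 and 74.2 RPM), and the part of this in the values was not tested.

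Between E13.5 females and males the change from E11.5 differed for 6 of the 8 genes by limma's test of the difference itself, where 37.6% of all genes did. On the log2 scale it was higher in females for Gpr125 (1.59) and G3bp2 (0.90) and lower for Hspbap1 (-2.93), and these 3 calls held in all 18 alternatives run. The calls of Zfp518b (1.61), Vcan (1.37) and Arhgef18 (-1.02) were lost in 6, 7 and 2 alternatives.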

How the results depend on the processing

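Calls between CKO-labelled and control libraries numbered 228 of 9384 genes tested, against 139 of 6225 with a filter at 20 RPM. With only CKO 2 and 3 there were 98, and 137 to 204 when single libraries were left out. Calls between E10.5 and E11.5 numbered 460 of 10749 genes tested, against 80 of 18473 with no filter. Without the variance trend there were 27, and 105 to 486 with single libraries left out, the lowest without E10.5 replicate 1. Of the 8 genes 6 were called between the sexes, and 3 to 6 with single libraries left out, the lowest without female replicate 2. Genes at the CKO level in wild type numbered 3, against 1 by group means and 2 to 3 with single libraries left out. Some differences that were not called changed sign, and the cause was not tested. Between E10.5 and E11.5, leaving out single libraries gave -0.095 to 0.21 for Acp6, -1.20 to 0.53 for Zfp518b and -0.23 to 0.086 for Arhgef18, whose signs turned without E10.5 replicate 1 or E11.5 replicate 2 (Acp6) or without E10.5 replicate 2 (the others). In females against E11.5 Vcan was 0.0065 with pseudocount 10 and -0.72 to 0.62 with single libraries left out. Between the sexes Acp6 was -0.066 to 0.42, the lowest without male replicate 1. Dirc2 was called between the sexes in 4 alternatives. Depth limits Vcan, Zfp518b and Dirc2 most, where wild-type libraries held as few as 1, 4 and 2 reads.

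With the replicate number as a block, calls were 314 between CKO-labelled and control libraries and 559 between E10.5 and E11.5, and the number of the 8 genes called stayed at 0, 6, 6 and 6 in the 4 wild-type comparisons. Libraries of different groups were also correlated by their deviations, each gene's value less the mean of that gene in the library's group. These are not correlations of whole expression profiles. In the floxed table the deviations of same-numbered libraries correlated at 0.02 to 0.25, and 6 of 8 libraries correlated best with their own number. In the wild-type table the deviations of same-numbered libraries correlated at -0.03 to 0.03. The labels do not say what the numbers stand for, so the main fit has no block. Whether the numbers of the floxed libraries mark a shared batch was not tested.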
